A study of Mus musculus with 3 samples.

Results

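Interferon-stimulated genes are the genes that cells switch on when an interferon binds its receptor, and they were followed here across the cell types of the inflamed mouse knee synovium. The list named 39 of them by gene name, and it was chosen with earlier results of these data known. Of these, 38 were among the 24357 gene names of the deposited matrices, and Mx2 was not. They fell into 16 antiviral effectors, 5 genes of the 2-5A synthetase family, 5 sensors of RNA or Z-form nucleic acid, 5 transcription factors and feedback regulators, and 7 interferon-inducible GTPases. In all, 523133 unique molecular identifiers (UMIs, each standing for 1 captured transcript molecule) were counted for the 38 genes.

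Type I interferons signal through the receptor Ifnar1/Ifnar2 and the kinases Jak1 and Tyk2, which phosphorylate STAT factors. Stat2 and Irf9 are part of the complex that binds the interferon-stimulated response element (ISRE) near its target genes. Interferon gamma, made mainly by T cells and natural killer cells, signals through Ifngr1/Ifngr2 to a factor that binds the gamma-activated site (GAS). Both routes share targets, and several of the products, among them Irf1, Irf7, Irf9 and Stat2, feed back on the response. In synovium, interferon-stimulated genes have been described in macrophages, neutrophils and stromal cells of inflamed joints.

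The data were droplet single-cell RNA counts from 3 libraries of 1 group, each made from the knee synovium of 2 pooled female C57BL/6 wild-type mice of 8 weeks, 6 mice in all. All carried collagen- and antibody-induced arthritis (C&AIA): 100 µg of type II collagen on day 0, 1 mg of an antibody cocktail against collagen on day 21 and lipopolysaccharide (LPS) on day 22, with tissue taken in the effector phase. Lipopolysaccharide, a ligand of Tlr4, is itself an inducer of interferons, and every mouse received it. No untreated mice were among the samples used here, so the values compare cell types and libraries and do not measure induction by arthritis. The libraries are called replicates 1, 2 and 3. They held 99782608 to 116125707 UMIs, with medians of 4702 to 5267 UMIs per barcode, and 36875 of 38804 barcodes were kept as single cells. A panel of markers that contains none of the 38 genes put 33370 of these cells, 90.5%, into a class. Levels are given as UPM, the UMIs of a gene in all cells of a class in 1 library per 1000000 UMIs of those cells. They are compared between classes and libraries for 1 gene at a time, not between genes.

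The promoters show which part of the list carries the elements named above. RefSeq promoter sequences (GRCm38, matched by symbol, 30 of the 38 genes) were searched on both strands over the 250 bases before the transcription start. The ISRE, spelled GAAA, any 2 bases, GAAA, was found in 15 of these 30 genes (50%), against 3.46% of 27025 genes with a promoter in the same table. GAS, spelled TTCNNNGAA, was found in 9 of the 30 (30%), against 8.13% of all. A match describes letters and not binding, and the lack of a match to this spelling in 250 bases does not show that the element is absent. The windows below belong to genes on which the results turn, 8 with an ISRE and Irf1 with a GAS. They are written 5′ to 3′ on the gene's strand with that motif in capitals, where TTTC, 2 bases, TTTC is the ISRE read from the other strand. Bst2 and Igtp are also among the 9 genes with a GAS, which stands in their windows outside the capitals or, in Bst2, overlaps them.
Isg15: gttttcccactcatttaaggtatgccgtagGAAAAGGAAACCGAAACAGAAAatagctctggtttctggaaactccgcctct
Ifit1: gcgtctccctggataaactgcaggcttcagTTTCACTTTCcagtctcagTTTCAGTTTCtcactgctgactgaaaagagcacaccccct
Ifit3: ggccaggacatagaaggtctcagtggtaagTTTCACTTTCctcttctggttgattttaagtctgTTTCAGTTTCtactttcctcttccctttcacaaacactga
Rsad2: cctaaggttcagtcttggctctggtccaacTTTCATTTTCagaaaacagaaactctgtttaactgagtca
Oas3: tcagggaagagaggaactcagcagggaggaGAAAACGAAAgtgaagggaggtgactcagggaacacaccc
Gbp2: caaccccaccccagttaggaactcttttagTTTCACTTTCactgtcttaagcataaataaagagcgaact
Igtp: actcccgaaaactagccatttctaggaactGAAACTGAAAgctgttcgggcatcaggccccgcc
Bst2: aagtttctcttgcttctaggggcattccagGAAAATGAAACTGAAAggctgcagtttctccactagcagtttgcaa
Irf1: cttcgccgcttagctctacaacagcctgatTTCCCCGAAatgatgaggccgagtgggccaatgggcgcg

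The Isg15 window, chr4:156200845-156200926 on the minus strand, held 3 overlapping matches that merge into 1 run, the first and last of them beginning 78 and 66 bases before the start. Ifit1 (chr19:34640755-34640843, plus strand) held 2 separate matches beginning 104 and 85 bases before its start, and Ifit3 (chr19:34583343-34583446, plus strand) held 2 at 156 and 122 bases. Rsad2 (chr12:26456533-26456602, minus strand), Oas3 (chr5:120777695-120777764, minus strand) and Gbp2 (chr3:142620574-142620643, plus strand) held 1 each, at 120, 75 and 59 bases. In Igtp (chr11:58199492-58199555, plus strand) the match began 34 bases before the start. Bst2 (chr8:71537557-71537632, minus strand) held 2 overlapping matches beginning at 130 and 124 bases. Its level was lower in neutrophils than in monocytes and macrophages, as described below. The GAS of Irf1 (chr11:53769894-53769962, plus strand) began 90 bases before its start.

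Summed over the 38 genes, neutrophils had the highest level among the 11 classes that held at least 20 cells in every library. Their sum was 4158, 3037 and 6574 UPM in replicates 1 to 3, a mean of 4590 ± 1808 (SD, n = 3). Monocytes and macrophages together had 1989 ± 141 UPM, T cells 1841 ± 43.4 and endothelial cells 1818 ± 103. Fibroblasts, the main resident stromal cells, had 709 ± 146 UPM and osteoclasts 717 ± 148, the lowest of the 11. The lowest neutrophil library lay above the highest library of every other class of the 11. UPM is a share of the UMIs of a class, not a count per cell, and depth per cell differed. Median UMIs per cell were 1859.5 in neutrophils, 6617.5 in monocytes and macrophages, 11262 in fibroblasts and 11890 in endothelial cells. Monocytes and macrophages, T cells, endothelial cells, erythroid cells (1799 ± 774 UPM) and dendritic cells (1784 ± 380 UPM) overlapped one another, and so did fibroblasts and osteoclasts. Between these groups stood adipocytes (1517 ± 435 UPM), natural killer cells (1268 ± 285 UPM) and pericytes with smooth muscle (1115 ± 128 UPM). Free RNA in the droplets, bounded from the markers of other classes, made up at most 11.2% to 20.1% of the UMIs of the gated classes and at most 40.7% in the erythroid cells of replicate 3. For the summed level of the list, the highest such bound of any library was 259 UPM in fibroblasts, 271 in osteoclasts and 347 in neutrophils. It was thus a larger part of the low sums.

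Cells of the same lineage differed in the sum as well. Mature neutrophils held 5318 ± 1554 UPM, and immature neutrophils, which still carried transcripts of granule proteins, held 1213 ± 360. Resident macrophages, 107 cells with at least 3 markers of a list that includes Vsig4, Cd163 and Folr2, held 3903 ± 294 UPM. They overlapped neither infiltrating monocytes at 2242 ± 298 nor the other macrophages at 1818 ± 171. Ifi27l2a, which encodes a small membrane protein, gave 47.9% to 65.4% of the sum of resident macrophages. It stood at 1738, 2757 and 2087 UPM in them, against 383 ± 65.4 in all monocytes and macrophages. Plasmacytoid dendritic cells, 71 cells with 11 in the smallest library, held 4154 ± 367 UPM, and Bst2, a surface tether of budding virus particles, gave 52.8% to 69.6% of it. In these cells Isg15 had 14 UMIs in all, so the 2 small classes with high sums were led by single genes, while in neutrophils the leading gene, Irf1, gave 17.7% to 21.2% of the sum.

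**Figure D1:**
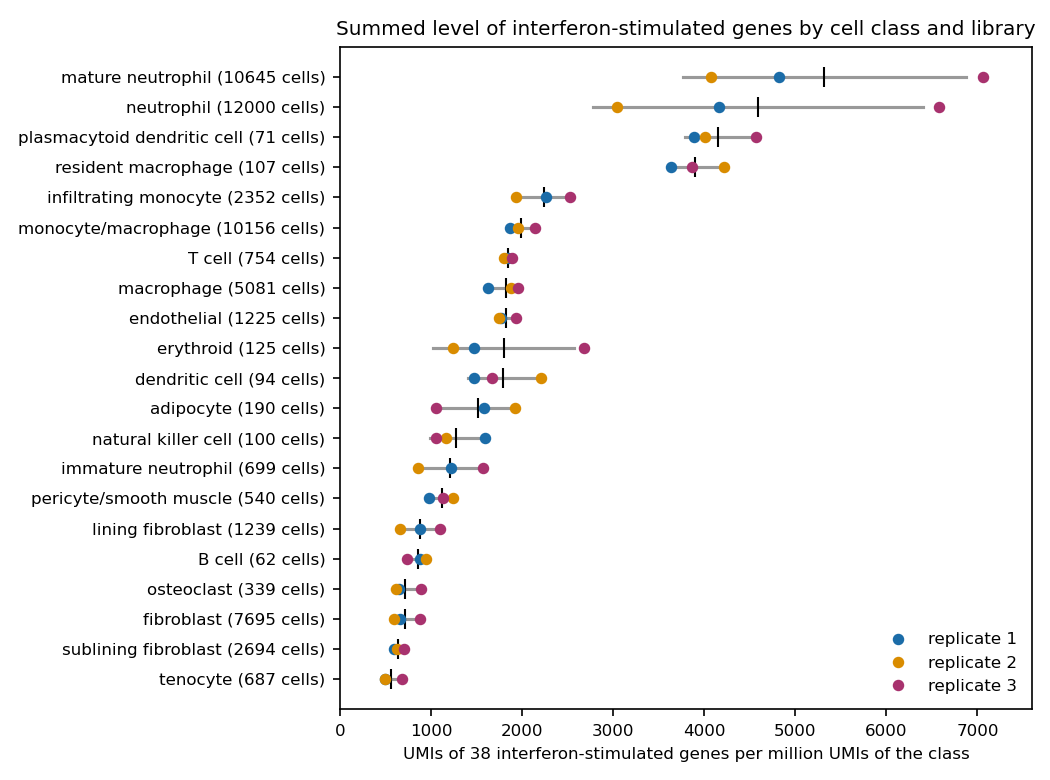
Summed level of the 38 interferon-stimulated genes (UPM, linear axis) by cell class. Points are the 3 libraries, the black tick is their mean and the grey bar ± 1 SD; mature neutrophils lie highest at 4076 to 7060 UPM and tenocytes lowest at 491 to 685.

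Neutrophils were the class with the highest mean for 24 of the 38 genes, and for 10 of these no neutrophil library overlapped the next class. Among genes with a mean of at least 10 UPM over the 11 classes, 19 of 29 listed genes were highest in neutrophils, against 11.5% of all 8769 genes, and 9 did not overlap the next class, against 7.42%. The antiviral effectors Ifit1, Rtp4 and Trim30a, the synthetase genes Oasl1, Oasl2 and Oas3, the transcription factors Irf1 and Irf9, and the GTPase genes Gbp2 and Irgm1 formed the group of 10. Oasl1, a regulator of Irf7 translation, had 64.2, 43.9 and 81.8 UPM in neutrophils and 7.57 ± 1.30 in endothelial cells, its next class. Irf1, which drives many genes of the gamma response, had 816, 645 and 1167 UPM in neutrophils and 157 ± 28.6 in T cells. Every neutrophil library lay above every T cell library for Irf1.

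Oasl2 stood at 226 ± 82.3 UPM in neutrophils and 43.9 ± 3.58 in pericytes with smooth muscle. Gbp2, which attacks the vacuoles of intracellular microbes, had 389 ± 197 UPM in neutrophils and 134 ± 34.8 in endothelial cells. The other 14 genes that were highest in neutrophils overlapped their next class. Isg15, a ubiquitin-like protein, was among these: it had 519, 348 and 924 UPM in neutrophils and 262, 150 and 657 in erythroid cells. Only 15, 11 and 12 erythroid cells of the 3 libraries held an Isg15 UMI. There 10% of the cells held 65.6% to 87.8% of the Isg15 UMIs, against 54.2% to 64.1% in mature neutrophils. Of the sensors with the highest levels, Zbp1 had 117 ± 54.0 UPM in neutrophils against 96.8 ± 12.7 in monocytes and macrophages, and Eif2ak2, the kinase that halts translation on double-stranded RNA, 32.9 ± 9.46 against 32.0 ± 1.01 in endothelial cells. For neither sensor did neutrophils stand apart. Gbp7 (119 ± 49.0 UPM against 106 ± 10.5 in endothelial cells) and Igtp (156 ± 86.9 against 97.7 ± 20.5 in T cells) overlapped as well.

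The other 14 genes were highest elsewhere. Endothelial cells led for Bst2, with 452, 442 and 491 UPM against 254 ± 52.0 in monocytes and macrophages, and for Ifi44, with 23.2 ± 6.20 UPM against 3.61 ± 3.16 in natural killer cells. Neither gene overlapped its next class. Xaf1 was also highest in endothelial cells (68.5 ± 10.1 UPM) but overlapped pericytes with smooth muscle. Dendritic cells led for Ifi35, with 103 ± 8.85 UPM and no overlap with natural killer cells at 70.2, 74.7 and 80.1, and for Stat2, with 54.0 ± 9.69 UPM, which overlapped neutrophils at 48.6 ± 18.4. Monocytes and macrophages led for Oas1a (12.1, 13.5 and 13.3 UPM), Dhx58 (22.4 ± 3.01) and Gbp3 (27.2 ± 4.02), each overlapping its next class. In natural killer cells, a class of 100 cells, Mx1 (4 UMIs), Usp18 (12 UMIs) and Ddx58 (32 UMIs) were highest on few counts.

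Erythroid cells, 125 in number, led for Rsad2, whose product viperin makes a chain-terminating nucleotide, and for the exonuclease gene Isg20. Rsad2 stood at 402, 245 and 592 UPM there and at 122, 79.0 and 189 in neutrophils, so these classes did not overlap. At least 1 Rsad2 UMI was found in 51.2%, 60.0% and 65.5% of the erythroid cells of replicates 1 to 3, at medians of 3078, 3033 and 1828 UMIs per cell. In fibroblasts, the class with the lowest Rsad2 level, the share was 4.81%, 4.97% and 4.60% at medians of 12610, 13877 and 10035 UMIs. The exact 95% binomial intervals, which cover counting error only, began at 35.1% or above in erythroid cells and ended at 6.00% or below in fibroblasts. Isg20 had 323, 410 and 366 UPM in erythroid cells and 183, 156 and 366 in neutrophils, which overlapped. Ifi27l2a was highest in adipocytes at 985, 1384 and 397 UPM, where 10% of the cells held 79.7% to 91.1% of its UMIs.

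**Figure D2:**
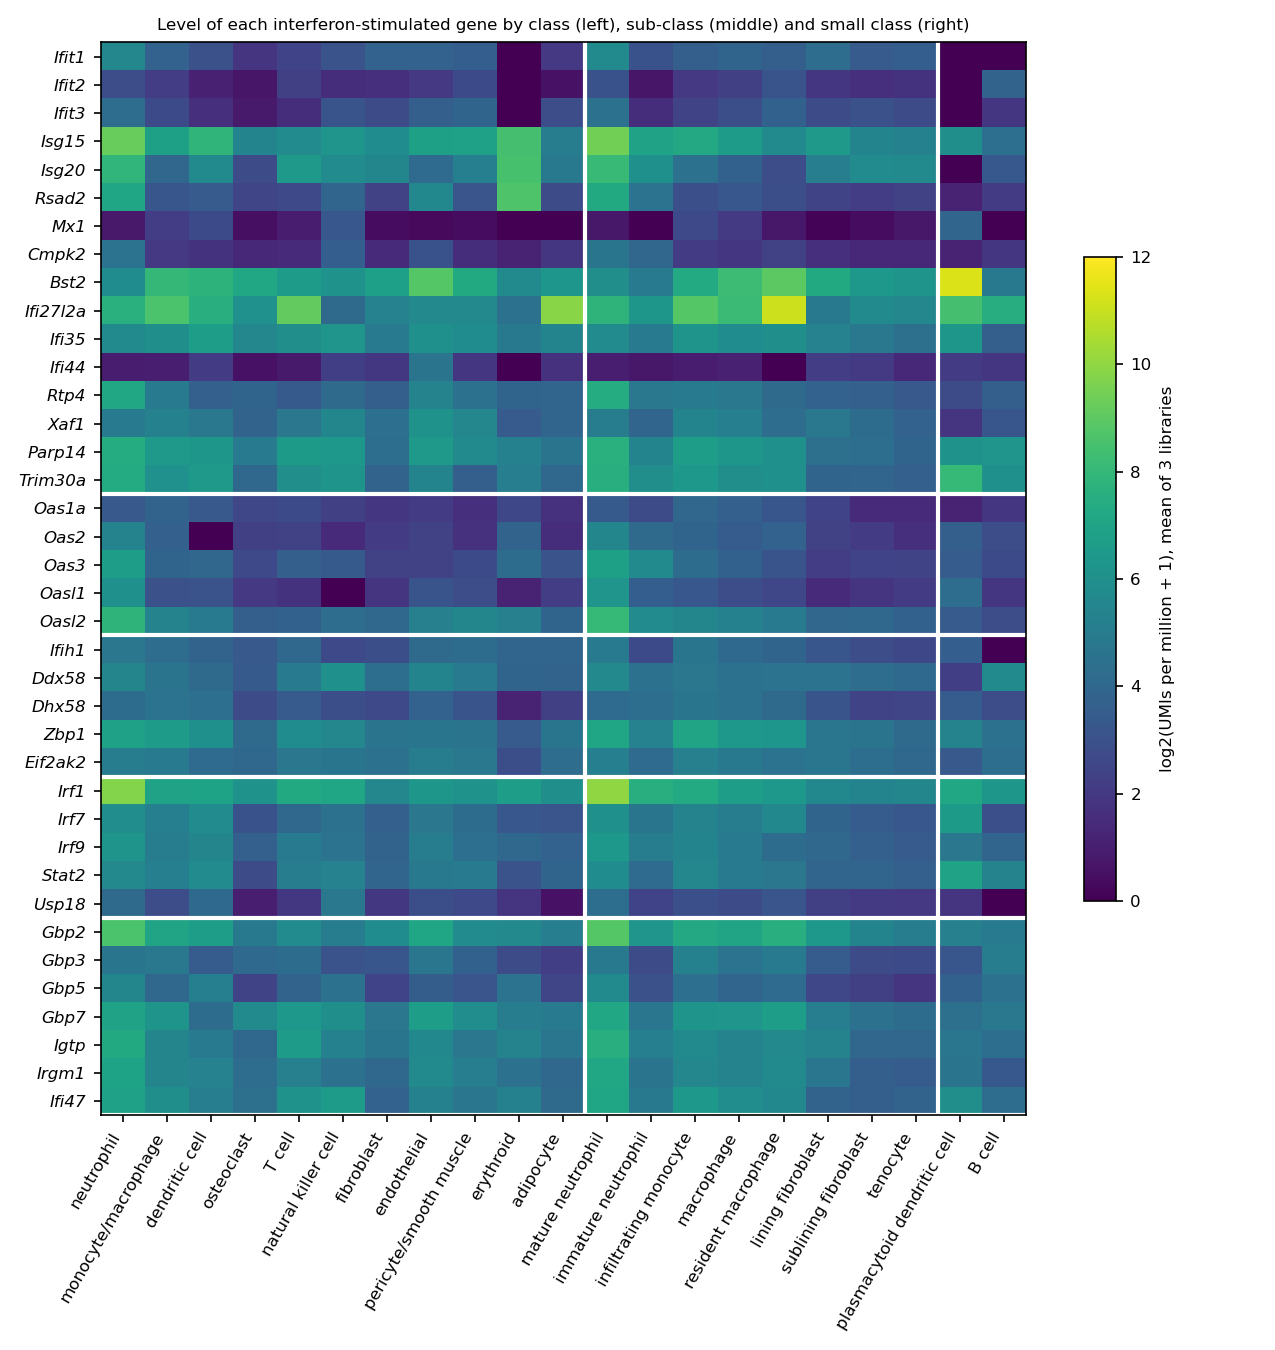
Level of each of the 38 genes (rows, ordered by role) in each cell class (columns) as the mean of 3 libraries on the scale log2(UPM + 1). Brighter colours are higher levels, to be read along a row; the neutrophil column is bright for Irf1 (876 UPM), Isg15 (597 UPM) and Gbp2 (389 UPM), while Bst2 is brightest in plasmacytoid dendritic cells (2606 UPM).

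Classes were then compared in pairs with edgeR's quasi-likelihood test on the summed UMIs, with the library as a block and Benjamini-Hochberg adjustment over all genes tested. A gene was called at an adjusted p below 0.05 with at least a 2-fold difference, that is a log2 fold change of at least 1 in size. The libraries were separate pools of 2 mice. With the library as a block, the p-values measure how the difference between 2 classes varies across those 3 pools. Of the 7 comparisons, 3 share the monocyte/macrophage sums, so their results are not independent of one another. Ifi44 and Mx1 were the listed genes that failed the filter on low counts, each in some comparisons, as the number tested shows.

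Against monocytes and macrophages, 22 of the 38 genes were higher in neutrophils and 2 were lower. Of all 14097 genes tested, 21.5% were higher and 20.4% lower. The median log2 difference over the 38 genes was 1.33, against 0.01 over all genes. In this comparison 4 of 5 synthetase genes, 9 of 16 antiviral effectors, 5 of 7 GTPase genes, 3 of 5 transcription factor and feedback genes and 1 of 5 sensors were higher. Isg20 stood at 183, 156 and 366 UPM in neutrophils and 12.7, 15.8 and 15.2 in monocytes and macrophages, a log2 difference of 4.25 (SE 0.17, adjusted p = 3.3e-09). Rsad2 followed at 4.23 (SE 0.10, adjusted p = 1.2e-10), from 122, 79.0 and 189 UPM against 7.96, 6.29 and 10.9. For both genes every neutrophil library lay far above every monocyte/macrophage library.

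Oasl1 differed by 3.48 (SE 0.15) and Irf1, at 115, 113 and 136 UPM in monocytes and macrophages, by 3.14 (SE 0.11). Isg15 had 109, 101 and 124 UPM there and differed by 2.64 (SE 0.15, adjusted p = 3.6e-08). Ifit1, which binds viral RNA ends, differed by 2.04 (SE 0.19) and Gbp2 by 1.82 (SE 0.11). Irf7, the amplifier of type I interferon production, stood at 51.8, 42.0 and 77.6 UPM against 28.8, 38.2 and 39.3; its log2 difference of 0.98 (SE 0.12) fell just short of 2-fold and was not called. The other 2 calls were in the opposite direction. Bst2 had 43.9, 36.6 and 87.1 UPM in neutrophils and 220, 227 and 313 in monocytes and macrophages, a log2 difference of -1.94 (SE 0.11, adjusted p = 5.6e-08). Mx1, below 10 UPM in both classes, differed by -2.01.

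Among the 4 sensors that were not called, Ifih1, Zbp1, Eif2ak2 and Dhx58 had log2 differences of 0.72, 0.51, 0.39 and -0.04. Of the 15 genes with an ISRE in the promoter window, 10 were called higher, with a median of 1.74, and of the 15 without, 8 were, with a median of 1.07. In endothelial cells against fibroblasts, 8 of 15 were higher in both sets, with medians of 1.085 and 1.018. In mature against immature neutrophils it was 12 of 15 and 10 of 14 (medians 2.165 and 1.416), and in lining fibroblasts 2 and 0 of 15. T cells had 8 lower with an ISRE and 3 without. Monocytes against macrophages gave no call in either set, with medians of 0.22 and 0.34. Dendritic cells had 0 and 1 higher and 2 and 1 lower genes. The split was not tested. Neutrophils also differed from monocytes and macrophages in a list of 10 genes known to respond to tissue digestion, such as Fos, Jun and Egr1. It summed to 8970, 6645 and 8643 UPM in neutrophils and 2577, 2312 and 2551 in monocytes and macrophages, with no gene at 0. Its part in the difference was not tested. Scaled by library totals alone in place of edgeR's TMM factors, the median of all genes moved by -0.33 and 19 of the 22 calls remained. The share of higher calls among all genes then fell from 51.3% to 33.8%.

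Mature neutrophils, cells with at most 3 of 11 markers of immature granules, were set against immature ones with at least 6. Of 36 genes that passed the filter on low counts, 28 were higher in mature neutrophils and none was lower, against 9.27% higher and 7.59% lower of 11153 genes tested. The median log2 difference was 1.73. All 7 GTPase genes and all 5 transcription factor and feedback genes were higher, with 11 of 14 antiviral effectors, 3 of 5 synthetase genes and 2 of 5 sensors. Ifit3 rose from 0.926, 2.28 and 2.57 UPM in immature to 19.9, 17.5 and 28.4 in mature neutrophils (log2 2.97, SE 0.39, adjusted p = 2.4e-07). Immature neutrophils held 1079692, 3514082 and 389064 UMIs of all genes in the 3 libraries, so their Ifit3 levels rested on few counts. Rsad2 had 18.5, 16.5 and 33.4 UPM in immature and 143, 110 and 207 in mature neutrophils (log2 2.47, SE 0.20). For each of these genes the stages did not overlap in any library.

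Oasl1 (log2 2.44, SE 0.24), Gbp2 (2.33, SE 0.19) and Isg15 (2.31, SE 0.18) followed. Isg15 had 101, 67.7 and 190 UPM in immature neutrophils and 620, 479 and 998 in mature ones. Irf1 differed by 2.20 (SE 0.18), Ifit1 by 2.16 (SE 0.27) and Irf7 by 1.16 (SE 0.21). The 8 genes that did not pass ranged from -0.45 (Dhx58, at 17.3 ± 5.01 against 19.4 ± 6.46 UPM) to 0.86 (Oas3, at 113 ± 9.28 against 50.6 ± 14.4). Immature cells numbered 157, 461 and 81 in the 3 libraries and had medians of 6288, 6249 and 4354 UMIs, while mature cells had 1812, 1952 and 1551. The rule counts detected markers, and the part of depth in the choice of cells was not tested. With every cell thinned to 1000 UMIs, 26 of the 28 calls remained. The digestion list stood at 9310 ± 721 UPM in mature and 2823 ± 453 in immature neutrophils, and its part was not tested. With library totals alone the median of all genes moved by 0.31, the 28 calls remained among 30, and the higher share of all calls went from 55.0% to 76.4%.

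**Figure D3:**
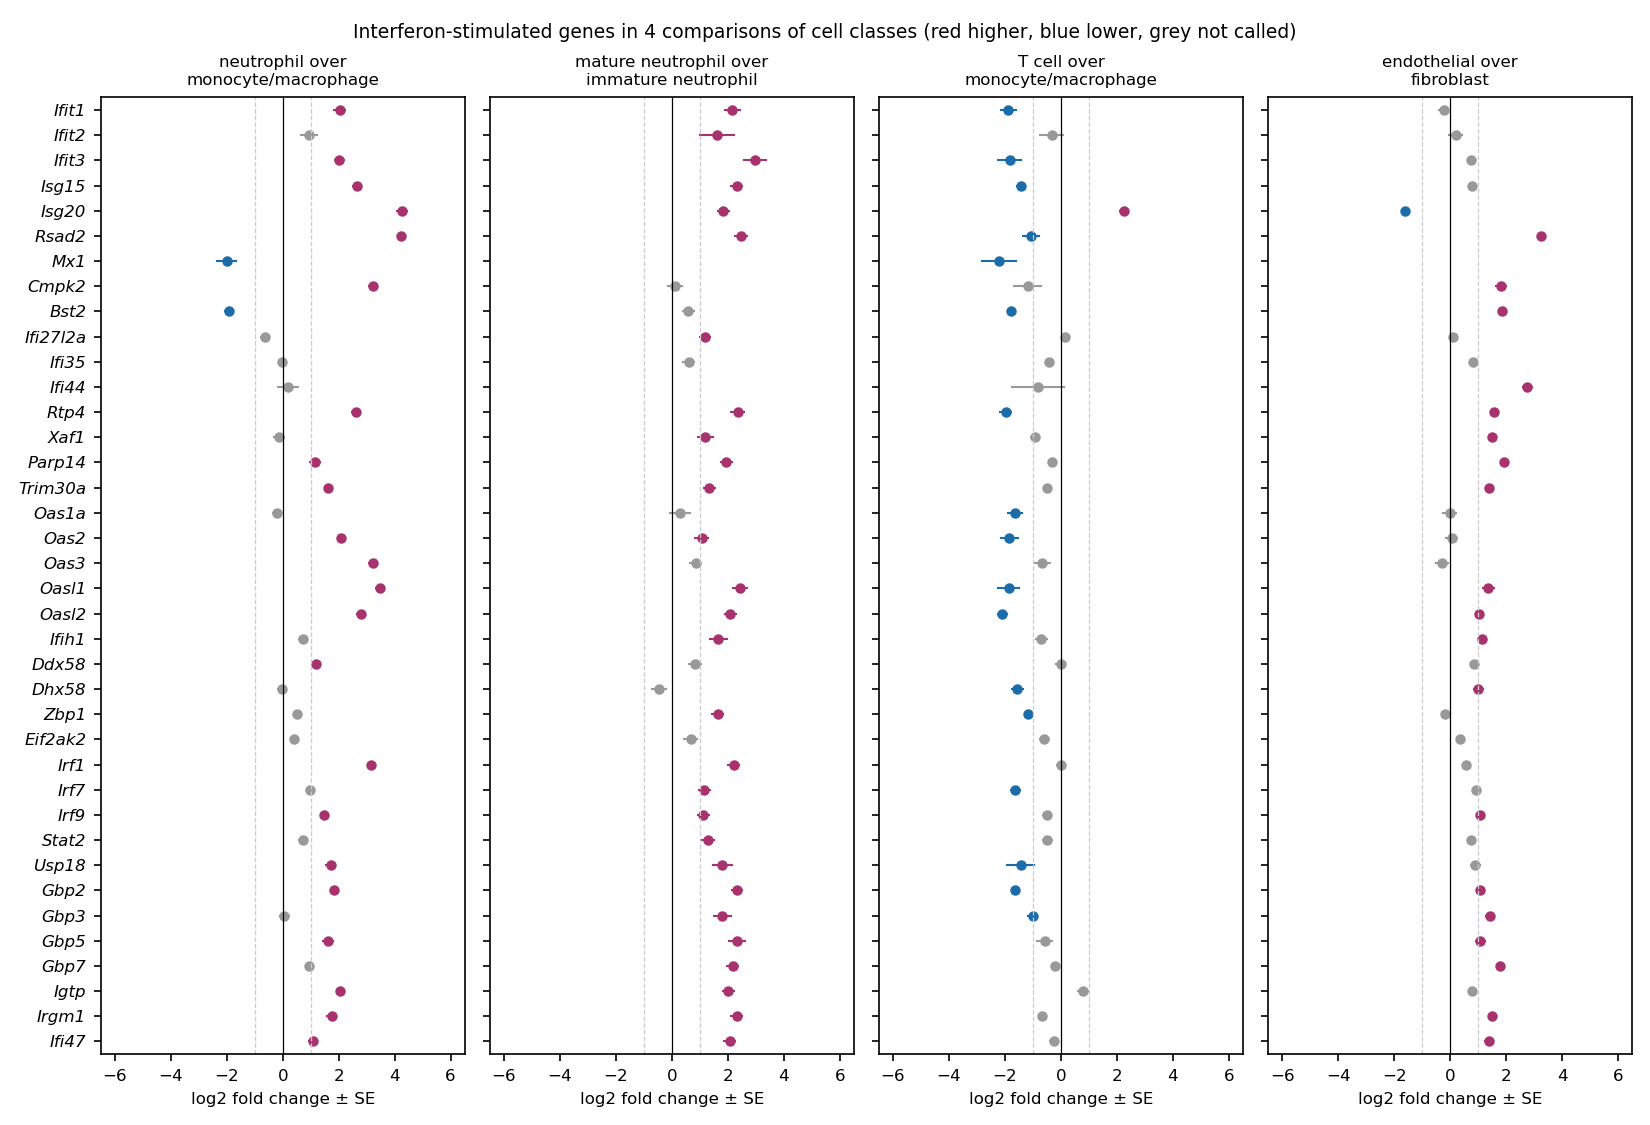
Log2 fold change of each tested gene in 4 of the pairwise comparisons, with bars of ± 1 SE. Red marks genes called higher in the first class, blue lower and grey not called; 22, 28, 1 and 19 genes are red in neutrophil against monocyte/macrophage, mature against immature neutrophil, T cell against monocyte/macrophage and endothelial cell against fibroblast.

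Infiltrating monocytes and macrophages, the recruited and the differentiated state of the same lineage, did not differ by this rule in any listed gene. None of 37 genes tested was called in either direction by edgeR, and none by DESeq2, against 3.94% higher and 4.91% lower of 12241 genes. Without the 2-fold limit, 19 genes were higher and 1 lower in monocytes at an adjusted p below 0.05. At an unadjusted p below 0.05 the counts were 20 and 2. The share of all genes at these looser limits was not counted, so these counts do not show whether the listed genes differ from other genes. The median log2 difference was 0.31, against -0.02 over all genes. Irf1 differed by 0.54 (SE 0.06) at 143, 146 and 186 UPM against 99.5, 94.7 and 116, and Isg15 by 0.58 (SE 0.15) at 172, 99.6 and 180 against 84.5, 105 and 96.1. Irf1 was higher in monocytes in each library, whereas for Isg15 replicate 2 had the lower value in monocytes. Irf7 (0.26), Gbp2 (0.12), Ifit1 (-0.34) and Rsad2 (-0.42) were closer to 0. Bst2 came nearest to a call on the low side, at 160 ± 41.9 UPM in monocytes and 296 ± 44.5 in macrophages (log2 -0.97).

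Dendritic cells, 94 in all, were compared with monocytes and macrophages, and 1 of 37 genes was higher and 6 were lower, against 5.44% and 8.15% of 12601 genes. The median log2 difference was -0.50. Isg20 was higher at 30.9, 105 and 23.4 UPM against 12.7, 15.8 and 15.2 (log2 1.66, SE 0.34, adjusted p = 1e-05). Replicate 2 carried most of that difference, and without it the log2 value was 0.82 and was not called. Gbp7 was lower at 6.86, 19.2 and 27.3 UPM against 74.1, 66.8 and 80.1 (log2 -2.22, SE 0.32), and Gbp3 by -1.52 (SE 0.46). No Oas2 UMI was found among 860891 UMIs of dendritic cells, which makes Oas2 at least 3.28-fold lower than in monocytes and macrophages, with a floor of 3 counts over the group. Ifi27l2a, Rtp4 and Ifi47 were the other 3 lower genes. Isg15 (0.90), Irf7 (0.41), Rsad2 (0.18), Irf1 (-0.14), Gbp2 (-0.52) and Ifit1 (-0.97) were not called. The lower calls were 3 with DESeq2 and 3 with thinned cells, so this comparison depended on the method. Of the dendritic cells, 38.3% lay near a limit of the class rule, against 3.37% of monocytes and macrophages. With the next class held to at most 50% of the marker share, dendritic cells gave no value.

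Most listed genes that separated T cells from monocytes and macrophages were lower in T cells. Of 38 genes, 1 was higher and 17 were lower, against 15.2% and 15.8% of 13305 genes, and the median log2 difference was -0.87. Isg20 was the higher gene, at 96.4, 74.2 and 99.5 UPM (log2 2.26, SE 0.14, adjusted p = 1.5e-08). Among the roles, 4 of 5 synthetase genes, 7 of 16 antiviral effectors, 2 of 7 GTPase genes, 2 of 5 sensors and 2 of 5 transcription factor and feedback genes were lower. Oasl2 had 10.2, 14.3 and 12.4 UPM against 37.6, 37.6 and 43.9 (log2 -2.09, SE 0.17), and Rtp4, a chaperone of G protein-coupled receptors, 9.58, 10.1 and 9.12 against 28.4, 29.3 and 29.2 (log2 -1.98, SE 0.19). Neither gene overlapped between the classes.

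Ifit1 (-1.88), Irf7 (-1.64), Gbp2 (-1.63), Isg15 (-1.42) and Rsad2 (-1.08) were also lower in T cells. Irf1 was level between them, at 151, 189 and 133 UPM in T cells against 115, 113 and 136 (log2 -0.01, SE 0.13). Ifi27l2a stood at 551 ± 77.6 UPM in T cells, after adipocytes the highest of the 11 classes, with at least 1 UMI in 57.1% to 58.5% of T cells. It did not differ from monocytes and macrophages on the TMM scale (log2 0.15, SE 0.10). With library totals alone the median of all genes moved by 0.39, 2 genes were higher, 13 were lower, and Rsad2 was no longer called at -0.69. The higher share of all calls went from 49.0% to 67.8%.

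Among non-haematopoietic cells, 19 of 37 genes were higher in endothelial cells than in fibroblasts and 1 was lower, against 12% and 16.6% of 14576 genes. The median log2 difference was 1.01. By role, 6 of 7 GTPase genes, 8 of 15 antiviral effectors 2 each of 5 synthetase genes and 5 sensors, and 1 of 5 transcription factor and feedback genes were higher. Rsad2 had 41.1, 44.9 and 54.9 UPM in endothelial cells and 3.39, 4.05 and 4.87 in fibroblasts (log2 3.26, SE 0.09, adjusted p = 2.5e-14). Ifi44 had 16.7, 29.1 and 23.8 against 2.75, 2.40 and 3.42 (log2 2.75, SE 0.16), and Parp14, an ADP-ribosyltransferase, 91.7, 81.4 and 85.8 against 19.8, 15.7 and 21.8 (log2 1.93, SE 0.09). All 3 were separated in every library.

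Gbp2 was higher by 1.09 (SE 0.10), while Irf7 (0.93), Isg15 (0.77), Irf1 (0.58) and Ifit1 (-0.22) were not called. Isg20 was the lower gene, at 17.8, 16.3 and 18.6 UPM in endothelial cells against 41.3, 40.5 and 53.2 in fibroblasts (log2 -1.60, SE 0.09). Leaving out 1 library gave between 14 and 21 higher genes. With library totals alone the median of all genes moved by 0.26, 27 genes were higher, and the higher share of all calls went from 42.1% to 53.1%.

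Lining fibroblasts, the Prg4-rich surface layer of the synovium, and sublining fibroblasts below it differed in 2 of 37 genes, both higher in the lining, against 4.58% higher and 7.15% lower of 12930 genes. The median log2 difference was 0.24. Igtp, a GTPase of the gamma response, had 47.9, 15.7 and 57.9 UPM in the lining and 14.6, 10.4 and 19.1 in the sublining (log2 1.30, SE 0.16, adjusted p = 3.7e-05). Oas1a, below 10 UPM in both, differed by 1.15. Isg15 had 79.6, 91.7 and 94.1 UPM against 35.7, 51.7 and 37.9; its log2 difference, 1.00 after rounding (SE 0.09), lay just under the limit. Igtp overlapped between the layers because of the lining cells of replicate 2, whereas Isg15 did not overlap. Gbp2 (0.87), Ifit1 (0.82), Irf7 (0.30), Rsad2 (0.24) and Irf1 (0.07) were not called. Without replicate 2 the number of higher genes was 5, and without replicate 3 it was 1.

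The 3 libraries were not alike in the level of the list. In mature neutrophils the sum was 4818 UPM in replicate 1, 4076 in replicate 2 and 7060 in replicate 3. All 34 of the genes with a mean of at least 10 UPM there were highest in replicate 3, and 30 were lowest in replicate 2. In the same cells 61.2% of 6591 genes at that level were highest in replicate 3, and 3543 of the 6591 were lowest in replicate 2. Over all neutrophils, 34 of 34 listed genes and 66.8% of all genes were highest in replicate 3. The median log2 ratio of replicate 3 to replicate 2 in mature neutrophils was 0.75 for the listed genes and 0.18 for all. Ifit1 went from 29.3 to 88.4 UPM between these libraries, Gbp5 from 24.9 to 91.1, and Isg15 from 479 to 998.

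Stromal classes were not alike. In fibroblasts 22 of 23 listed genes were highest in replicate 3, against 45.9% of all genes, in lining fibroblasts 22 of 24 against 41%, and in tenocytes 18 of 20 against 47.3%. In sublining fibroblasts the count was 12 of 22 against 41.2%. Pericytes and smooth muscle cells had 7 of 26 against 39.1%, with sums of 979.8, 1235 and 1131 UPM, and adipocytes 8 of 22 against 43.9%, with sums of 1577, 1919 and 1056, so in both the sum was highest in replicate 2. In T cells 6 of 25 genes were highest in replicate 3, against 43.5% of all, and their sum stayed between 1797 and 1884 UPM. Monocytes and macrophages had 17 of 30 genes highest in replicate 3, against 44.7%, and endothelial cells 14 of 30 against 44.4%. Osteoclasts had 16 of 19 against 40.9%, erythroid cells 16 of 22 against 36.3%, and natural killer cells 4 of 26 against 40.3%. Since each library is 1 pool of mice and 1 preparation, animals and preparation cannot be told apart, and no test was made of the difference.

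Several other measures differ between the same libraries. Mature neutrophils of replicate 3 had the lowest median depth (1551 UMIs, against 1812 and 1952), the fewest genes (772, against 833.5 and 855) and 0.363% mitochondrial UMIs, against 0.419% and 0.378%. Replicate 3 held 81 immature neutrophils, against 157 and 461. The digestion list was highest in replicate 1, at 10098 UPM against 8683 and 9150. After thinning to 1000 UMIs the sum in mature neutrophils was 5002, 4314 and 7340 UPM, and with free RNA subtracted it was 5603, 4669 and 8243, so the order of the libraries remained. The comparison of neutrophils with monocytes and macrophages gave 19 higher genes without replicate 3, and 24 and 25 without replicates 1 and 2.

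**Figure D4:**
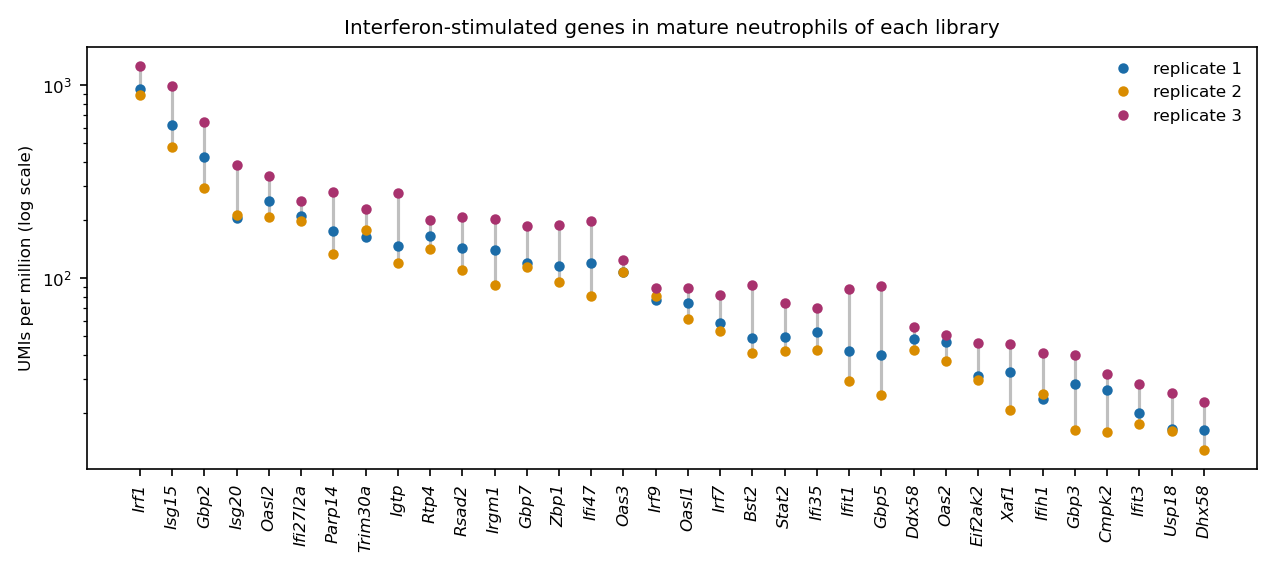
Level of each gene in mature neutrophils (UPM, log axis) in each of the 3 libraries. Replicate 3 lies above the other 2 for all 34 genes with a mean of at least 10 UPM.

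Cells of a class also differed in how much of the list they carried. After thinning every cell to 1000 UMIs, which left out none, 17.4% ± 8.09 of mature neutrophils held at least 10 UMIs of the 38 genes together, with 10.9% in the lowest library and 26.5% in the highest. Unthinned, the share was 40.1% ± 8.52. In monocytes and macrophages it was 0.971% ± 0.378 thinned and 55.8% ± 2.25 unthinned at their greater depth, and in fibroblasts 0.121% ± 0.0422 thinned and 33.1% ± 0.940 unthinned. No thinned immature neutrophil reached it, while 22.8% ± 4.54 did unthinned. In endothelial cells the share was 0.474% ± 0.472 thinned and 73.4% ± 1.06 unthinned, above that of mature neutrophils only without thinning. The variance of the thinned count divided by its mean was 5.98 ± 0.656 in mature neutrophils, where a Poisson count gives a value near 1. It was 2.15 ± 0.337 in monocytes and macrophages and 6.63 ± 3.19 in adipocytes. The mean counts of these 3 classes were 5.55, 2.02 and 1.48 UMIs. The 10% of mature neutrophils with the most UMIs of the list held 33.8% ± 1.86 of them. This share was not particular to them: it was 32.7% ± 1.90 in monocytes and macrophages, 41.2% ± 3.01 in immature neutrophils and 42.85% ± 2.40 in fibroblasts.

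Mature neutrophils with a UMI of 1 listed gene carried more UMIs of the others. Among these thinned cells, those with an Ifit3 UMI held 3.24 ± 0.473 times as many UMIs of the other 37 genes as those without (3.40, 3.62 and 2.71 in the 3 libraries). The ratio was 3.02 ± 0.416 for Ifit1, 2.51 ± 0.361 for Usp18, the protease that removes Isg15 from proteins, and 2.50 ± 0.305 for Gbp5. It was 2.29 ± 0.182 for Rsad2 and 2.07 ± 0.0666 for Isg15. At the lower end stood Irf1 at 1.52 ± 0.0886, Bst2 at 1.34 ± 0.104, Irf9 at 1.28 ± 0.119 and Ifi27l2a at 1.17 ± 0.0786. Irf1, with a UMI in 51.5% ± 5.22 of thinned mature neutrophils, was thus in the lower part of the range, and the rarer Ifit3, in 1.73% ± 0.638, at its top. The same ratio for Isg15 was 1.77 ± 0.146 in monocytes and macrophages, 2.46 ± 0.198 in fibroblasts and 1.48 ± 0.227 in endothelial cells. These ratios describe cells that share a library, and have no test.

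**Figure D5:**
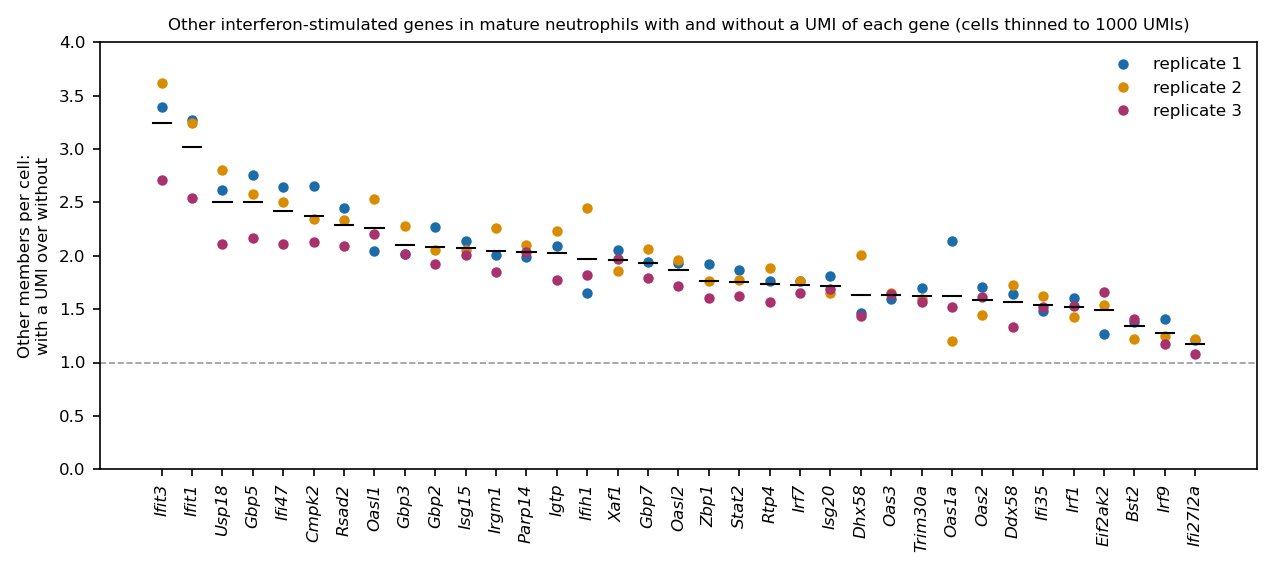
Mature neutrophils thinned to 1000 UMIs: UMIs of the other listed genes per cell in cells with a UMI of the named gene, divided by those in cells without. Points are the 3 libraries, the black bar is their mean and the dashed line marks a ratio of 1; the mean ratio runs from 1.17 (Ifi27l2a) to 3.24 (Ifit3).

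The genes upstream of the list were taken from a second list of interferon ligands, receptors, kinases and STAT factors, inhibitors and nucleic acid sensors, none of them a member. Among ligands, Ifng had 223, 89.3 and 140 UPM in T cells and 46.4 ± 38.2 in natural killer cells, and at most 3.29 in any other class, where B cells had that value from 1 UMI. Ifnb1 had 2 UMIs in neutrophils, 7 in monocytes and macrophages and 2 in osteoclasts. Of the ligand names, 13 had no row, 11 of them Ifna and the others Ifnl, and Ifna4 and Ifna15 had 1 UMI each. The names with no row were not analysed here. Ifngr1 stood at 345 ± 6.26 UPM in T cells, 189 ± 36.3 in monocytes and macrophages, 70.6 ± 4.11 in neutrophils and 40.5 ± 3.37 in fibroblasts. Ifnar2 ranged less, from 104 ± 22.4 UPM in T cells to 225 ± 16.4 in monocytes and macrophages, with neutrophils at 165 ± 15.8.

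In neutrophils against monocytes and macrophages, 10 of 32 tested genes of this second list were higher and 7 lower, beside 21.5% and 20.4% of all genes. The higher ones included the inhibitors Socs1 (log2 2.13, SE 0.11) and Socs3 (1.35, SE 0.10) and the factors Stat3 (1.90) and Stat4 (2.33). The lower ones included the adaptors Tmem173, also called STING (-2.16), and Mavs (-1.96), and the receptor gene Ifngr1 (-1.08). Between mature and immature neutrophils 7 of 30 were higher and none was lower, beside 9.27% and 7.59% of all genes. Among them were Socs1, at 146, 84.7 and 279.8 UPM against 28.7, 24.8 and 46.3 (log2 1.85, SE 0.20), and Socs3, at 443, 413 and 528 UPM against 95.4, 88.8 and 113 (1.90, SE 0.18). Both inhibitors separated the stages without overlap. In monocytes against macrophages 1 was higher and 1 lower of 32, beside 3.94% and 4.91% of all genes, and in dendritic cells 5 and 4 of 32, beside 5.44% and 8.15%. T cells had 4 higher and 13 lower of 33, beside 15.2% and 15.8%. Endothelial cells had 7 and 2 of 31, beside 12% and 16.6%, and lining fibroblasts none of 30, beside 4.58% and 7.15%.

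Genes outside the list whose level followed its mean most closely were ranked over the 33 sums of 11 classes in 3 libraries, by Pearson correlation on log2(UPM + 1). Of 8740 genes compared, those with the highest values included Rara, a retinoic acid receptor (0.89), Cfap43 (0.86), Bcl10 (0.85), Cdc42se1 (0.84), Mbnl2 (0.84), Wsb1 (0.84), Klf6 (0.84), Pdlim5 (0.83) and Zcchc6 (0.83). The sums share libraries and classes, and neutrophils were the class with the highest mean list level, so the values describe a likeness and have no test. Rara stood at 216 UPM in neutrophils and 51.4 in fibroblasts on average.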

How the data were processed

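Cell-by-gene UMI counts were deposited by the authors as raw counts for 3 libraries of a DNBelab C droplet kit. Per the file headers they were made with PISA 1.0. GRCm39 (mm39), Seurat 3.0.2 and R 3.6 stand in the submitters' processing notes; the sources name no aligner or annotation (not given in the sources used here) and no treatment of reads shared by near-identical genes, so values of Ifit, Oas, Gbp and Ifi27l2a relatives are uncertain to that extent. The matrices held 11939, 11602 and 15263 barcodes, where the labels state 11111, 10668 and 14363 cells. Barcodes needed 200 genes and at most 20% mitochondrial UMIs (82 failed), and 1847 with a Scrublet doublet score above 0.2 (scanpy 1.11.5) were left out. Libraries shared 2602 to 2866 barcode names, which are serial and show no shared cells.

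A cell entered a class with at least 3 of its markers when the next class held at most 66.67% of the first class's marker share; 3505 cells entered none, and 9.31% of all cells lay near a limit (1 marker count away, or a share between 60% and 75%). Of the gated cells, 97.9% lay in a cluster of the same class, from 33 clusters made without the 38 genes. UMIs were summed per library and class (at least 20 cells), and tested in edgeR 4.0.16 (R 4.3.3; TMM, filterByExpr, glmQLFit and glmQLFTest, two-sided, library as block). The replicate number is the library itself, so both sums of a pair come from the same mice. Alternatives were DESeq2 1.42.0, library totals alone, no filter, no replicate block, each library left out, other gates, clusters, doublets kept, free RNA subtracted and thinned cells. The code was tested on simulated counts. UPM intervals cover counting error only.

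Genes named were, in each comparison, the 3 called genes with the largest change in each direction, alike in all 3 libraries and at 10 UPM or more, plus Isg15, Ifit1, Rsad2, Irf7, Irf1 and Gbp2; others are named because of their values. The members and lists were chosen with earlier results of these data known. The doublet score, the scoring rule of the gate with its sub-class limits, and the clustering were chosen after seeing the data. Promoter letters are from RefSeq on GRCm38, and no coordinate was carried to GRCm39. Values of 1 further gene are not reported here.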

Additional observations from a re-analysis of the deposited data

How the results depend on the processing

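Of 192 counts of called genes under an alternative, 169 stayed within 1.5 times the reported count, as did 179 of 185 summed levels within 1 SD. Of 786 values for single genes, 745 kept direction and call, 28 gained a call, 13 lost it and 0 reversed. The cause was not tested for those that moved. Leaving out the replicate block moved each count by at most 1 gene; 16 of the lower T cell genes, 18 of the higher endothelial genes and 2 of the higher lining genes were shared with the reported calls. Without it, 22 higher and 2 lower genes were called in neutrophils against monocytes and macrophages, 28 and 0 in mature against immature neutrophils, 0 and 0 in monocytes against macrophages, 1 and 6 in dendritic cells, 1 and 17 in T cells, 18 and 1 in endothelial cells, and 3 and 0 in lining fibroblasts.

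With free RNA subtracted, infiltrating monocytes had 1 higher and 1 lower gene and lining fibroblasts 8 and 1, and summed levels became 550.94 UPM in fibroblasts, 4318.9 in resident macrophages, 466.16 in sublining fibroblasts and 386.05 in tenocytes. The stricter gate gave 1 lower gene in infiltrating monocytes, 2 higher in dendritic cells and 1 lower in lining fibroblasts. Library totals alone gave 3 higher genes in dendritic cells, 2 in T cells and 4 in lining fibroblasts; the higher share of all calls in dendritic cells then went from 40.1% to 49.3%, and to 50.9% with DESeq2. Thinned cells gave 3 lower genes in dendritic cells, 11 lower in T cells, 4 higher and 1 lower in lining fibroblasts, and 1955 UPM in endothelial cells. DESeq2 gave 3 lower genes in dendritic cells. Clusters in place of the gate gave 1 higher gene in lining fibroblasts and 1736 UPM in T cells; no cluster held dendritic cells or resident macrophages by name, so these have no such value. Leaving out 1 library gave 0 to 1 lower genes in infiltrating monocytes, 1 to 2 higher in dendritic cells, 1 to 2 higher in T cells, and 1 to 5 higher and 0 to 1 lower in lining fibroblasts. Classes of few cells (dendritic, natural killer, erythroid and plasmacytoid dendritic cells) limit what depth can show.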
